A study of Mus musculus with 57 samples.

Results

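The unfolded protein response and the chaperone system of the endoplasmic reticulum (ER) were followed as 35 genes in mouse prefrontal cortex. The genes were taken by a list of symbols, and all 35 were found among the 18088 genes of the table. The list was divided by role into an ATF6/XBP1 arm of 27 genes (chaperones, folding enzymes, ER-associated degradation, the translocon and its sensors) and an ATF4/CHOP arm of 8 genes. RNA of male and female C57BL/6J mice was sequenced from 56 libraries. Animals were heterozygous for the Shank3 delta C allele (HT) or wild type (WT), and each genotype had received lithium, fluoxetine or vehicle in the milk of treated dams for 3 weeks, on postnatal days 3 to 24. Tissue was taken on postnatal day 25. There were 9 HT lithium libraries (5 female, 4 male), 10 HT fluoxetine libraries (5 of each sex), 8 HT vehicle libraries (5 female, 3 male), 9 WT lithium libraries (4 female, 5 male), 10 WT fluoxetine libraries and 10 WT vehicle libraries (5 of each sex in both). Pups of all 6 groups were therefore nursed by a dam given an agent or its vehicle, and no label ties a library to its litter. Pups of 1 litter may stand behind several libraries, and p-values measure only the spread between these libraries. What each pup took in is not given.

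Proteins that enter the secretory pathway fold in the ER with the help of chaperones, lectins and disulfide isomerases. When unfolded proteins accumulate, 3 membrane sensors act. ATF6 is cut to a transcription factor, IRE1alpha (gene Ern1) splices the Xbp1 messenger RNA so that it encodes an active factor, and PERK (gene Eif2ak3) phosphorylates eIF2alpha, which lowers general translation and favours that of ATF4. ATF6 and XBP1 are known for raising chaperones and degradation factors through ER stress response elements, whereas ATF4 raises CHOP (gene Ddit3) and genes of amino acid metabolism through C/EBP-ATF response elements. Splicing of Xbp1, cleavage of ATF6 and translation of Atf4 cannot be read from gene-level values.

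The promoters of the members are shown first, because the response elements of both arms are defined by their sequence. RefSeq promoters (250 bases before to 50 after a gene's start, mouse build GRCm38.p6) were at hand for 30 of the 35 members, with none for Hyou1, Manf, Atf6, Derl1 and Sec61a1. The ER stress response element (ERSE) was searched on both strands as CCAAT and CCACG separated by any 9 bases. It was found in 39 of 32851 promoters (0.119%) and in those of 8 members. The second element, ERSE-II, was searched as ATTGG and CCACG separated by any 1 base, and was found in 12 promoters (0.0365%) and in those of 2 members. Each stretch below reads 5′ to 3′ along the element, with the element in capitals and 10 bases on either side, and a match is a description, not a binding site.

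Hspa5 ERSE (chr2:34772015-34772053, plus strand): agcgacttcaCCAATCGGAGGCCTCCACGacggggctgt
Hsp90b1 ERSE, distal copy (chr10:86705628-86705666, minus strand): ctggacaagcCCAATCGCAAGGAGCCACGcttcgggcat
Hsp90b1 ERSE, proximal copy (chr10:86705523-86705561, plus strand): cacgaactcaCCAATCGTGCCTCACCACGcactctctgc
Calr ERSE (chr8:84847065-84847103, plus strand): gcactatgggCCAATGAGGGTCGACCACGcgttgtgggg
Canx ERSE (chr11:50325790-50325828, minus strand): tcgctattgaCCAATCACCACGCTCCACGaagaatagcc
Creld2 ERSE (chr15:88819510-88819548, minus strand): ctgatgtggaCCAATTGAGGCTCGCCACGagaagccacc
Dnajc3 ERSE (chr14:118937817-118937855, plus strand): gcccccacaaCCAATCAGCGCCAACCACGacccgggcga
Pdia6 ERSE (chr12:17266481-17266519, plus strand): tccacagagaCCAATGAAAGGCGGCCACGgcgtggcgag
Syvn1 ERSE (chr19:6046522-6046560, plus strand): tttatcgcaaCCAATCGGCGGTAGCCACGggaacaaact
Herpud1 ERSE-II (chr8:94386367-94386397, plus strand): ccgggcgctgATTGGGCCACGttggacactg
Dnajb11 ERSE-II (chr16:22857842-22857872, plus strand): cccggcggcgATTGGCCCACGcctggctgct

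All 10 of these genes belong to the ATF6/XBP1 arm. With the gene's start as position 0, the element of Syvn1 lay nearest before a start (-44 to -26), followed by the ERSE-II of Herpud1 (-52 to -42) and the ERSE of Hspa5 (-65 to -47), and the ERSE-II of Dnajb11 lay just after its start (7 to 17). An XBP1 core, TGACGTGG, was in 222 promoters (0.676%) and in none of the 30 members'. The C/EBP-ATF response element (CARE), searched as TGATGNAA on both strands, was in 1304 promoters (3.97%) and in those of 5 members. Of these 4 belong to the ATF4/CHOP arm and are printed here in the same way, and the fifth was Herpud1.

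Asns CARE (chr6:7693215-7693242, minus strand): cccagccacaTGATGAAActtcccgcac
Atf3 CARE (chr1:191183426-191183453, plus strand): gcggacttggTGATGCAAgtgcgagaag
Chac1 CARE (chr2:119351039-119351066, minus strand): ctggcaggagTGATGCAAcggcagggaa
Trib3 CARE (chr2:152344029-152344056, plus strand): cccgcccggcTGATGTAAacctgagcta

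The 250 bases before the start are given for Hspa5, whose product is the central chaperone of the system, with its exact match to the ERSE letters in capitals. They are also given for Sdf2l1, the called member of largest lithium fold change in both genotypes, in which none of the 4 motifs was found. Imperfect copies of the elements were not searched for.

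Hspa5 upstream (chr2:34771840-34772089, plus strand): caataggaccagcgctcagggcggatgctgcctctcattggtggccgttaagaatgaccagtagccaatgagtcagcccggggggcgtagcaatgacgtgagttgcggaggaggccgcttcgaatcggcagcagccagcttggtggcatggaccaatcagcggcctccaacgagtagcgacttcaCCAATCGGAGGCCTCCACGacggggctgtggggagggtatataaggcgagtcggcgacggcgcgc
Sdf2l1 upstream (chr16:17132384-17132633, minus strand): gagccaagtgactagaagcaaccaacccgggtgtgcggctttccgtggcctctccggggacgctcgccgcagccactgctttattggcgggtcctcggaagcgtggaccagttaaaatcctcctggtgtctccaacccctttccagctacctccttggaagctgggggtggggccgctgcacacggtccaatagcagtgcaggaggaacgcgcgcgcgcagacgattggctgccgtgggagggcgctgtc

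Values throughout are normalised read counts, that is, reads per gene divided by 1 size factor per library, and the reads recovered from them numbered 22984556 to 35969254 per library. Markers of excitatory neurons were high in every library (summed level of 8 markers 88954 to 191985), and so were those of astrocytes (6 markers, 42846 to 65732). Olfactory bulb markers varied widely within every group, with a summed level of 5 markers between 239 and 14785. The library labelled HT vehicle female 1 stood apart in choroid plexus markers (a summed level of 53071, where no library outside its group passed 396), and HT lithium female 5 had been set apart in earlier results of these data. Shank3 had lowest, median and highest values of 5748, 8027 and 8248 in HT vehicle libraries, against 6022, 7616 and 8496 in WT vehicle libraries, so the groups overlapped. Where in Shank3 the delta C allele lies is not given in the labels, and Shank3 reads summed over the gene cannot tell a wrongly labelled library.

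The members covered a wide range of abundance. Per kilobase of the longest transcript and averaged over the 56 libraries, Calr had the highest level of the 35 (4357 normalised reads per kilobase, above 98.6% of genes), followed by Hsp90b1 (2732), Canx (2165) and Hspa5 (2039.7). The sensors were lower, with 403 for Atf6, 185 for Eif2ak3 and 52.8 for Ern1. Trib3, a pseudokinase induced by CHOP, was the lowest at 4.04, above 6.3% of genes, and the stress-induced factor Atf3 was next at 19.8. Both also had the widest spread between libraries of 1 group, with a pooled SD of 0.64 for Trib3 and 0.89 for Atf3 on the log2 scale, against 0.07 to 0.25 for the other members.

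Most of the listed ER chaperones, and some of the listed degradation factors, were higher under lithium in both genotypes. In HT animals 14 of the 35 members were higher and 1 lower under lithium than under vehicle (limma-trend, Benjamini-Hochberg adjusted p below 0.05 over 18026 genes), against 5.06% of all genes higher and 4.7% lower. In WT animals 13 members were higher and 0 lower, against 7.05% of all genes higher and 4.65% lower. edgeR on the recovered reads gave 14 higher and 1 lower in HT and 13 higher and 0 lower in WT. The median log2 fold change of the 35 was 0.13 in HT and 0.12 in WT, beside 0.00 over all genes in both. By arm, 12 of the 27 ATF6/XBP1 genes were higher and 1 lower in HT, and 12 were higher in WT, whereas 2 of the 8 ATF4/CHOP genes were higher in HT and 1 in WT. The steps were small: among the called members the largest fold was that of Sdf2l1, 1.61 in HT and 1.44 in WT. In tissue RNA, a change in the share of cells that express a gene and a change in RNA per cell cannot be told apart.

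**Figure D1:**
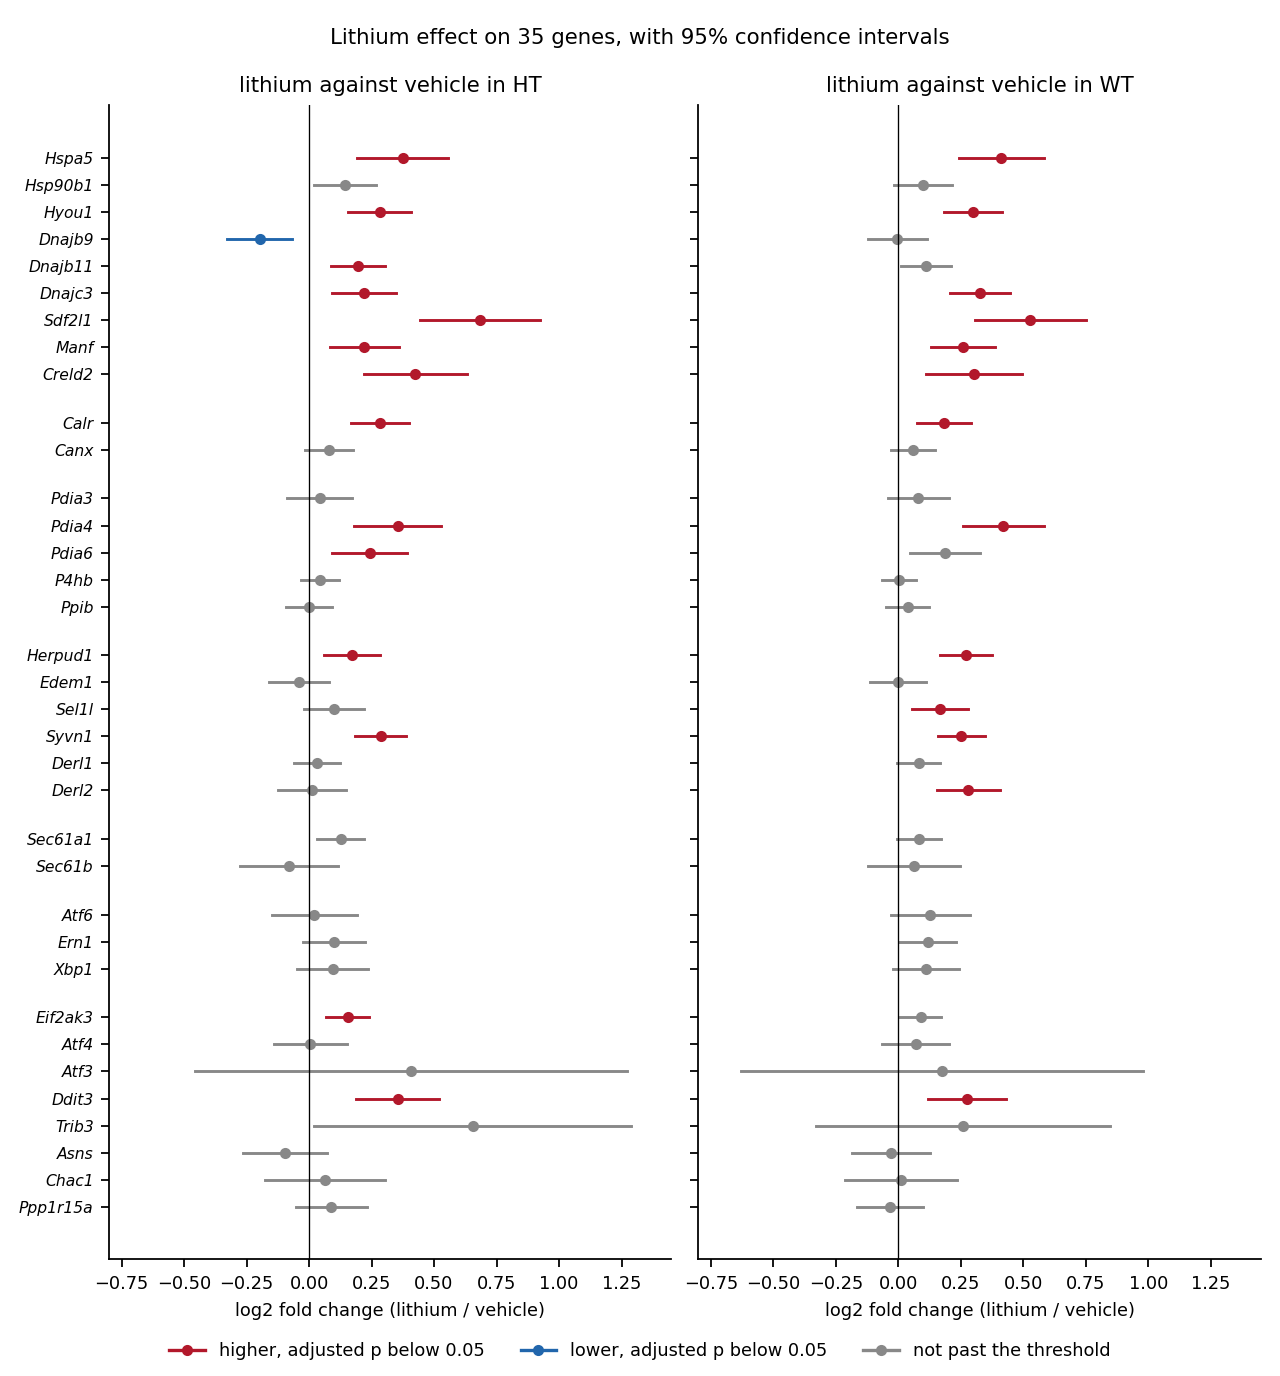
Log2 fold change of each of the 35 genes, lithium over vehicle, with its 95% confidence interval, in HT (left) and WT (right), grouped by role from chaperones at the top to the ATF4/CHOP arm at the bottom. Red genes were higher and the blue gene lower at an adjusted p below 0.05, with 14 red in HT and 13 in WT.

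Of the 9 ER chaperones and co-chaperones, 7 were higher and 1 lower in HT, and 6 were higher in WT. Hspa5, which encodes BiP, the Hsp70 of the ER lumen and a repressor of all 3 sensors, had lowest, median and highest values of 7005, 8647 and 11485 in HT lithium libraries, against 5383, 6807 and 8056 in HT vehicle libraries. The WT values were 6057, 8111 and 9274 under lithium, against 5040.3, 6186 and 6903 under vehicle. Lithium libraries were mostly the higher ones in both genotypes, and the ranges overlapped. Its log2 fold change was 0.37 ± 0.09 (SE) in HT (adjusted p = 0.00511) and 0.41 ± 0.08 in WT (adjusted p = 0.000726).

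Sdf2l1 encodes a lumenal protein that joins BiP and ERdj co-chaperones. It had 301, 387 and 436 in HT lithium libraries, against 199, 237 and 303 in HT vehicle libraries. Among WT animals it had 237, 356 and 407 under lithium, against 208, 225 and 311 under vehicle. The HT ranges met only at their edges, while in WT the highest vehicle library, a female, passed the lowest lithium libraries. The log2 fold change was 0.68 ± 0.12 in HT (adjusted p = 0.000227) and 0.53 ± 0.11 in WT (adjusted p = 0.000993).

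Hyou1, a large Hsp70-related protein that exchanges the nucleotide of BiP, had 2914, 3249 and 3959 in HT lithium libraries, against 2260.3, 2614 and 3055 in HT vehicle libraries. In WT it had 2760.3, 3092 and 3699 under lithium, against 2416, 2535 and 2769 under vehicle, so that a single vehicle value passed the lowest lithium value. It was higher by 0.28 ± 0.06 in HT (adjusted p = 0.00238) and by 0.30 ± 0.06 in WT (adjusted p = 0.000448), on the log2 scale.

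Dnajc3, a J-domain co-chaperone of BiP that also inhibits eIF2alpha kinases, had 1714, 2014 and 2318 in HT lithium libraries, against 1435, 1679 and 2179 in HT vehicle libraries. The WT values were 1723, 1991 and 2291 under lithium, against 1257, 1595 and 1865 under vehicle. The groups overlapped in both genotypes, more so in HT. Its log2 fold change was 0.22 ± 0.06 in HT (adjusted p = 0.0214) and 0.33 ± 0.06 in WT (adjusted p = 0.000158, the smallest of the 35 in WT).

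Creld2, an ER protein with disulfide isomerase activity, had 299.6, 351 and 551 in HT lithium libraries, against 213, 275 and 345 in HT vehicle libraries. Among WT animals it had 248, 355 and 413 under lithium, against 253, 289 and 331 under vehicle, and there the lowest lithium value lay below every vehicle value. Its log2 fold change was 0.43 ± 0.10 in HT (adjusted p = 0.00514) and 0.30 ± 0.10 in WT (adjusted p = 0.0303). Manf, a secreted ER protein that binds BiP, had 999.7, 1107 and 1329 in HT lithium libraries, against 904, 960.3 and 1112 in HT vehicle libraries, and in WT 809.6, 1108 and 1289.8 under lithium, against 786, 906 and 1039 under vehicle. Overlap was wide in both. It was higher by 0.22 ± 0.07 in HT (adjusted p = 0.0298) and by 0.26 ± 0.06 in WT (adjusted p = 0.00497).

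The J-domain co-chaperones divided. Dnajb11, which hands unfolded proteins to BiP, had 1636, 1798 and 2149.8 in HT lithium libraries, against 1398, 1584 and 1789 in HT vehicle libraries, a log2 fold change of 0.20 ± 0.05 (adjusted p = 0.0143), with overlapping groups. In WT its log2 fold change was 0.11 ± 0.05 (adjusted p = 0.149), which did not pass. Dnajb9, a J-domain protein that recruits BiP to the lumenal domain of IRE1alpha, was the 1 member lower under lithium: it had 832, 972 and 1162 in HT lithium libraries, against 1033, 1136 and 1247 in HT vehicle libraries, and its log2 fold change was -0.20 ± 0.06 (adjusted p = 0.0375). In WT its interval ran from -0.12 to 0.11 around no change. Hsp90b1, the Hsp90 of the ER, had log2 fold changes of 0.14 ± 0.06 in HT (adjusted p = 0.142) and 0.10 ± 0.06 in WT (adjusted p = 0.298) and did not pass.

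**Figure D2:**
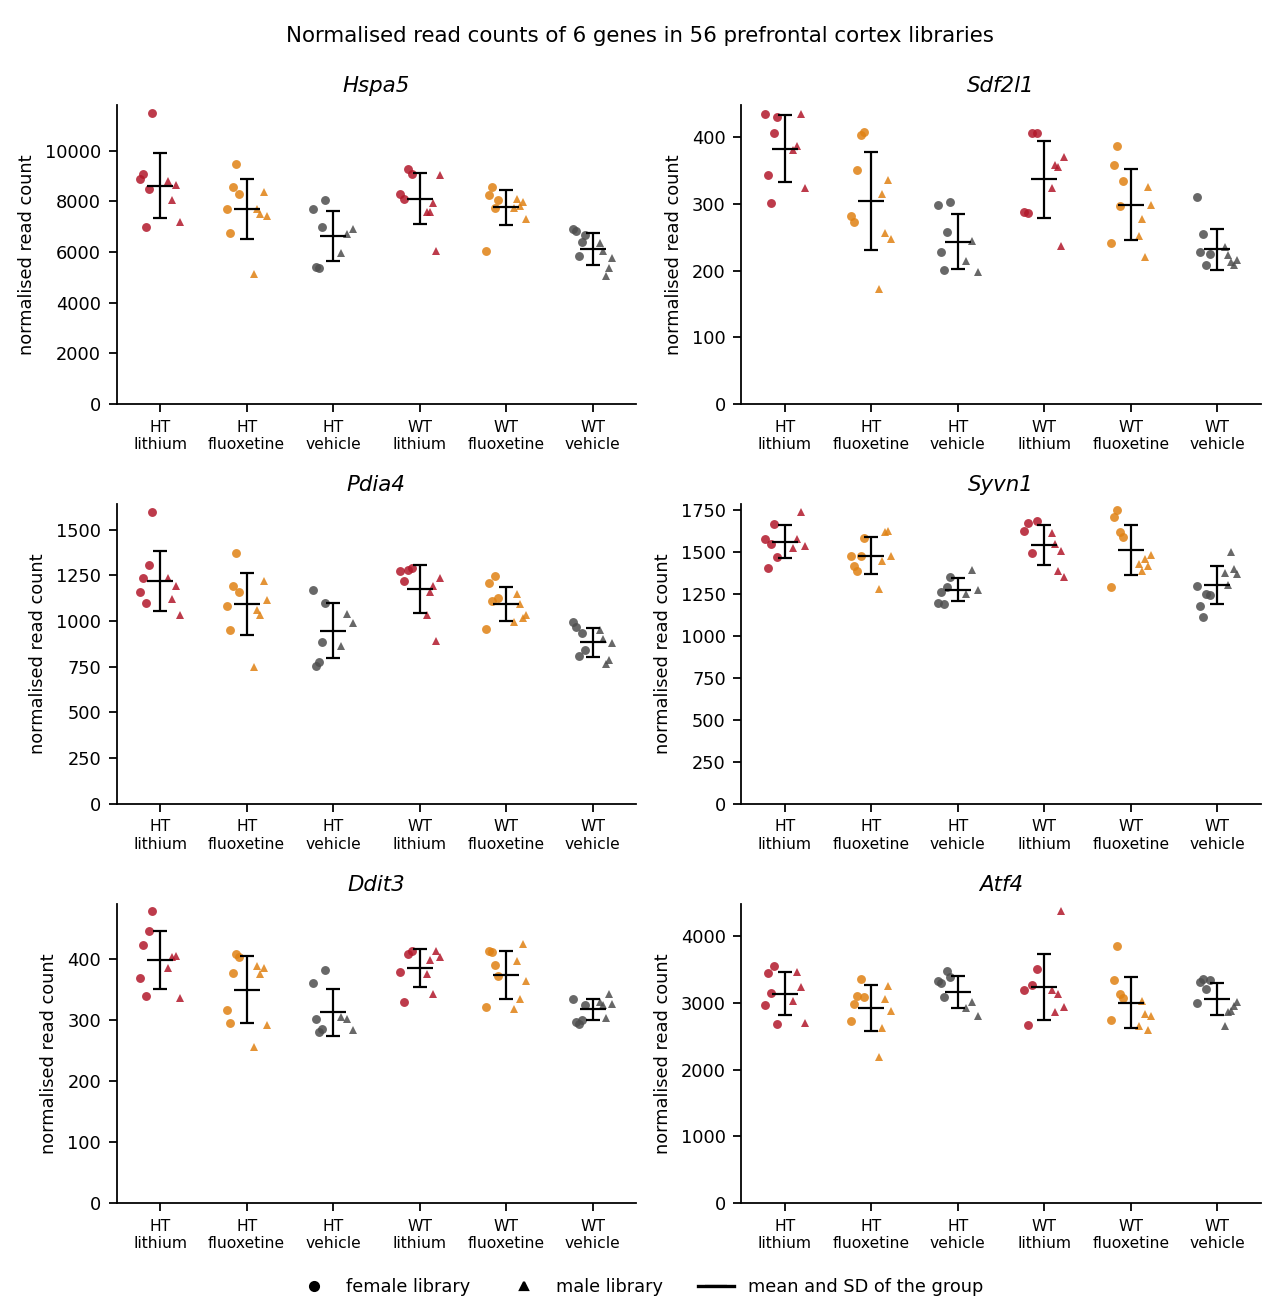
Normalised read count of 6 genes in each of the 56 libraries, by genotype and drug, with a circle for a female and a triangle for a male library, and the mean and SD of each group in black. The means of Sdf2l1, Hspa5, Pdia4, Syvn1 and Ddit3 were higher under lithium than under vehicle in both genotypes. Their lithium and vehicle ranges overlapped, except those of Syvn1 in HT. The 6 groups of Atf4 overlapped as well.

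The lectin chaperones Calr and Canx hold newly made glycoproteins until they fold. Calr, the soluble one, had 9134, 10604 and 11759 in HT lithium libraries, against 7434, 8884 and 9656 in HT vehicle libraries, and in WT 7650.1, 9733 and 10576 under lithium, against 7896, 8529.6 and 9015 under vehicle. Most lithium libraries were above the vehicle range, and 1 WT lithium library was below it. It was higher by 0.28 ± 0.06 in HT (adjusted p = 0.000896) and by 0.18 ± 0.05 in WT (adjusted p = 0.0194). Canx, the membrane-bound lectin, had log2 fold changes of 0.08 ± 0.05 in HT and 0.06 ± 0.04 in WT, and neither passed (adjusted p = 0.314 and 0.424).

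Among the 5 isomerases, 2 were higher in HT and 1 in WT. Pdia4, a disulfide isomerase found in complexes with BiP, had 1034, 1189 and 1595 in HT lithium libraries, against 756, 935 and 1167 in HT vehicle libraries. In WT it had 891, 1220.5 and 1289.8 under lithium, against 764, 891 and 996 under vehicle. The lowest lithium library alone reached into the vehicle range in WT, and the overlap was wider in HT. Its log2 fold change was 0.35 ± 0.09 in HT (adjusted p = 0.00557) and 0.42 ± 0.08 in WT (adjusted p = 0.000356). Pdia6, which attenuates IRE1alpha, was higher by 0.24 ± 0.08 in HT (adjusted p = 0.0296), and its value of 0.19 ± 0.07 in WT did not pass (adjusted p = 0.0732). The partner of the lectins, Pdia3, the abundant P4hb and the prolyl isomerase Ppib had log2 fold changes between 0.00 and 0.08 in both genotypes and did not pass.

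Of the 6 degradation factors, 2 were higher in HT and 4 in WT. Syvn1 encodes the ubiquitin ligase of the HRD1 complex. It had 1401, 1546 and 1735 in HT lithium libraries, against 1188, 1265 and 1388 in HT vehicle libraries, and these ranges did not overlap. The WT values were 1349.9, 1544 and 1682 under lithium, against 1114, 1297 and 1495 under vehicle. The log2 fold change was 0.29 ± 0.05 in HT (adjusted p = 0.00027) and 0.25 ± 0.05 in WT (adjusted p = 0.000255). Herpud1, a membrane protein that organises that complex, had 1187, 1279 and 1463 in HT lithium libraries, against 1111, 1126 and 1292 in HT vehicle libraries. Among WT animals it had 1179, 1360.1 and 1501 under lithium, against 1019, 1111 and 1163 under vehicle, where every lithium library lay above every vehicle library. It was higher by 0.17 ± 0.06 in HT (adjusted p = 0.0407) and by 0.27 ± 0.05 in WT (adjusted p = 0.000385).

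Derl2, part of the channel through which substrates leave the ER, had 586, 758 and 904 in HT lithium libraries, against 685, 761 and 928 in HT vehicle libraries, with the same centre in both. In WT it had 689, 856 and 892 under lithium, against 596, 673 and 831 under vehicle, a log2 fold change of 0.28 ± 0.06 (adjusted p = 0.00192). Its value in HT was 0.01 ± 0.07 (adjusted p = 0.948). Sel1l, the adaptor of Syvn1, was higher by 0.17 ± 0.06 in WT (adjusted p = 0.0391), and its 0.10 ± 0.06 in HT did not pass (adjusted p = 0.324). Edem1, which marks misfolded glycoproteins, had a median of 603 in HT lithium libraries, against 613 in HT vehicle libraries, and of 635 in WT lithium libraries, against 637 in WT vehicle libraries. Derl1 and both translocon subunits, Sec61a1 and Sec61b, did not pass in either genotype, with log2 fold changes between -0.08 and 0.13.

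The sensors and the factor that govern the chaperone arm did not pass. Xbp1 had 1909, 2085 and 2415 in HT lithium libraries, against 1757, 1959.7 and 2330.0 in HT vehicle libraries. The WT values were 1495, 1920.1 and 2212 under lithium, against 1515, 1781 and 2207 under vehicle. Lithium and vehicle libraries shared nearly the same range, and the log2 fold changes were 0.09 ± 0.07 in HT (adjusted p = 0.459) and 0.11 ± 0.07 in WT (adjusted p = 0.3), with 95% intervals of -0.05 to 0.24 and -0.02 to 0.24. Atf6 and Ern1 had log2 fold changes of 0.02 to 0.13.

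In the ATF4/CHOP arm, Ddit3 was the gene called in both genotypes. This factor, which promotes cell death in prolonged stress and is itself a target of ATF4 and ATF6, had 337, 403 and 479.8 in HT lithium libraries, against 281, 302 and 383 in HT vehicle libraries. Among WT animals it had 331, 399 and 415 under lithium, against 293, 325 and 343 under vehicle. Lithium libraries lay above most vehicle libraries, with overlap at the edges. The log2 fold change was 0.36 ± 0.08 in HT (adjusted p = 0.00363) and 0.27 ± 0.08 in WT (adjusted p = 0.0135). Eif2ak3, the sensor kinase PERK, had 797, 876 and 981 in HT lithium libraries, against 731, 770.4 and 815 in HT vehicle libraries, with a log2 fold change of 0.15 ± 0.04 (adjusted p = 0.0154), and in WT its 0.09 ± 0.04 did not pass (adjusted p = 0.146).

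Atf4 itself had 2683, 3144 and 3556 in HT lithium libraries, against 2806, 3190.2 and 3470.4 in HT vehicle libraries. In WT it had 2672, 3186 and 4368 under lithium, against 2656, 3007 and 3361 under vehicle. The groups shared their range, and the log2 fold changes were 0.01 ± 0.07 in HT (95% interval -0.14 to 0.15) and 0.07 ± 0.07 in WT (-0.07 to 0.20). Its targets Asns (asparagine synthetase), Chac1 (a glutathione-degrading enzyme) and Ppp1r15a (the stress-induced subunit that directs a phosphatase to eIF2alpha) had log2 fold changes from -0.10 to 0.09 in both genotypes and did not pass. Trib3 had medians of 8.49 in HT lithium libraries, against 4.94 in HT vehicle libraries, and 10.1 in WT lithium libraries, against 7.48 in WT vehicle libraries, and Atf3 ranged from 8.94 to 94.4 over the same 4 groups. With so few reads their intervals were wide, from 0.02 to 1.29 for Trib3 and from -0.46 to 1.27 for Atf3 in HT, and neither passed.

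**Figure D3:**
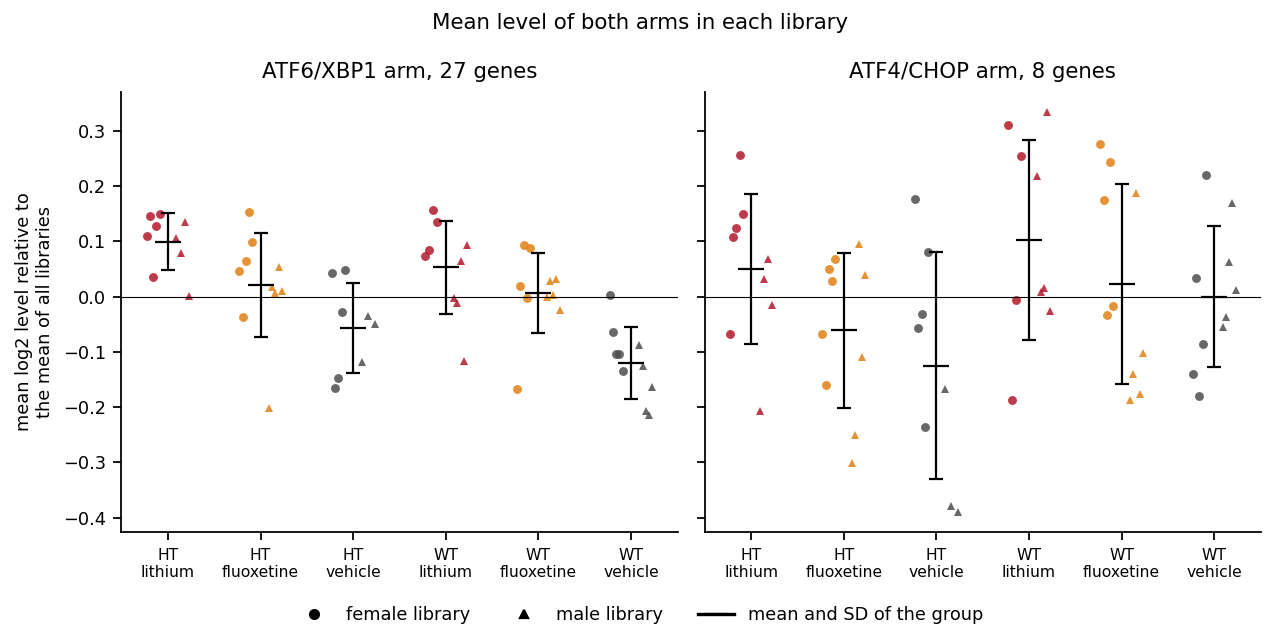
Mean log2 level of the 27 ATF6/XBP1 genes (left) and the 8 ATF4/CHOP genes (right) in each library, relative to each gene's mean over the 56 libraries, with a circle for a female and a triangle for a male library, and the mean and SD of each group in black. In the chaperone arm the median was 0.11 in HT lithium libraries and -0.04 in HT vehicle libraries, and 0.07 in WT lithium libraries and -0.11 in WT vehicle libraries. Lithium and vehicle libraries overlapped in both arms and both genotypes.

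Read as 1 level per library, the mean of the 27 chaperone-arm genes was 0.10 ± 0.05 on the log2 scale in HT lithium libraries (SD, n = 9), 0.02 ± 0.09 in HT fluoxetine libraries (n = 10) and -0.06 ± 0.08 in HT vehicle libraries (n = 8). In WT it was 0.05 ± 0.08 under lithium (n = 9), 0.01 ± 0.07 under fluoxetine (n = 10) and -0.12 ± 0.07 under vehicle (n = 10). Lithium and vehicle libraries overlapped in this arm. The lowest HT lithium library was at 0.0008 and the highest HT vehicle library at 0.049. In WT the lowest lithium library was at -0.117 and the highest vehicle library at 0.0038. These levels are a description, since the members were chosen as a group. Across the 12 groups the lowest mean was that of WT vehicle males, -0.16 ± 0.05 (n = 5), and the highest were those of HT lithium females, 0.11 ± 0.05 (n = 5), and WT lithium females, 0.11 ± 0.04 (n = 4). The 8 genes of the ATF4/CHOP arm had 0.05 ± 0.14 in HT lithium libraries, against -0.13 ± 0.21 in HT vehicle libraries, and 0.10 ± 0.18 in WT lithium libraries, against 0.00 ± 0.13 in WT vehicle libraries, and the libraries of all 4 groups overlapped. Trib3 and Atf3, with the widest spread, enter this level with the same weight as the others.

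Of the 10 members with an ERSE or ERSE-II in the promoter, 8 were higher under lithium in HT and 6 in WT, with median log2 fold changes of 0.23 and 0.22. Canx and Hsp90b1 were the ERSE holders that passed in neither. The 12 members of the chaperone arm whose promoter held neither element included 2 higher (Sdf2l1 and Pdia4) and 1 lower (Dnajb9) in HT, and 4 higher in WT (Sdf2l1, Pdia4, Sel1l and Derl2), with medians of 0.04 and 0.10. These counts describe the listed genes and were not tested.

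The same 11 genes were called higher under lithium in both genotypes, 78.6% of the 14 in HT and 84.6% of the 13 in WT: Hspa5, Hyou1, Dnajc3, Sdf2l1, Manf, Creld2, Calr, Pdia4, Herpud1, Syvn1 and Ddit3. These 2 comparisons share no library. How many of all genes called higher were shared by both genotypes was not counted, so the overlap cannot be called particular to the members. Whether the lithium effect differed between HT and WT was tested as an interaction. limma called 0 of the 35 (2 at an unadjusted p below 0.05, and 0 by edgeR), against 0.0166% of all genes. Derl2 had the smallest p, an effect lower by 0.27 ± 0.09 in HT than in WT on the log2 scale, with an adjusted p of 0.357. For Dnajb9 the difference was -0.19 ± 0.09 (adjusted p = 0.479) and for Calr 0.10 ± 0.08 (adjusted p = 0.733). With all libraries, the calls found in 1 genotype alone are therefore not shown to differ between genotypes. Without the 14 libraries of highest olfactory level, 2 members were called, Derl2 at -0.40 ± 0.09 (adjusted p = 0.0135) and Dnajb9 at -0.33 ± 0.09 (adjusted p = 0.0274). The share of all genes called in that reduced fit is not given here, so these calls cannot be said to be particular to the members.

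Calls near the threshold depended on single libraries. Those of Hspa5, Hyou1, Sdf2l1, Calr, Pdia4, Syvn1 and Ddit3 held in both genotypes under every alternative run. In WT, the call of Sel1l ended (adjusted p = 0.0506 to 0.0994) without lithium female 2, 3 or 4, lithium male 3 or 5, vehicle female 2, 4 or 5, or vehicle male 1, 3, 4 or 5. That of Creld2 ended (0.0514 to 0.0659) without lithium female 3 or 4, lithium male 1 or 2, vehicle female 2 or 3, or vehicle male 3. In HT, Dnajb9 lost its call (0.051 to 0.117) without lithium female 1 or 5, lithium male 1, 2 or 4, vehicle female 1 or 4, or vehicle male 2 or 3, and its log2 fold change was -0.07 after correction for GC content and length (adjusted p = 0.571). Herpud1 lost it (0.0529 to 0.134) without lithium female 1 or 5, lithium male 2 or 3, vehicle female 1, 2, 3 or 4, or vehicle male 1 or 3. Manf lost it (0.0522 to 0.08) without lithium female 4 or 5, lithium male 2 or 3, vehicle female 2 or 3, or vehicle male 1 or 3. Pdia6 lost it (0.0502 to 0.0838) without lithium female 5, lithium male 1 or 3, vehicle female 2 or 3, or any 1 of the vehicle males. Dnajc3 lost it (0.0505 to 0.0832) without lithium male 1 or 3, vehicle female 2 or vehicle male 1, and Dnajb11 (0.0531) without vehicle male 1. The GC and length correction also ended the calls of Sel1l in WT (adjusted p = 0.292) and of Eif2ak3 (0.16), Herpud1 (0.118) and Manf (0.0661) in HT, and the call of Creld2 in WT ended without the 14 libraries of highest olfactory level (0.113). With HT lithium and HT vehicle libraries alone in the fit, Dnajc3 (0.096), Dnajb9 (0.0731), Dnajb11 (0.0594) and Eif2ak3 (0.059) were not called.

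Both of the libraries set apart are in HT. Without HT vehicle female 1 and HT lithium female 5, 12 members were called in HT instead of 15. The calls of Dnajb9 (adjusted p = 0.152), Herpud1 (0.0916), Pdia6 (0.0735) and Manf (0.0567) ended, and Sec61a1 was called (0.000935). Among those that held were Hspa5 at 0.36 ± 0.09, Sdf2l1 at 0.69 ± 0.13 and Syvn1 at 0.28 ± 0.05 on the log2 scale. A few markers of cell types were called, over all marker lists near the shares of all genes (5.06% higher in HT and 4.65% lower in WT). In HT, 1 of 8 excitatory neuron, 1 of 6 astrocyte, 1 of 6 microglia and 1 of 6 endothelial markers were higher. In WT 2 of 6 microglia markers and 1 of 6 endothelial markers were lower. Oligodendrocyte markers, of which 0 of 6 were called, had a summed level of 47668 to 157246 in HT lithium libraries, against 69638 to 145882 in HT vehicle libraries, and of 91518 to 167154 in WT lithium libraries, against 84818 to 250020 in WT vehicle libraries, and their part in the result was not tested. All 6 had negative log2 fold changes in both genotypes, with a median of -0.35 in HT and -0.22 in WT. Striatal projection neuron markers, of which 0 of 6 were called, had a median log2 fold change of 0.28 in HT and 0.47 in WT, with a summed level of 3224 to 7807 in HT lithium libraries, against 3167 to 4666 in HT vehicle libraries, and of 3308 to 9713 in WT lithium libraries, against 3014 to 5524 in WT vehicle libraries, and their part was not tested either. Olfactory bulb markers had a summed level of 239 to 10790 in HT lithium libraries, against 275 to 8979 in HT vehicle libraries, and of 555 to 9095 in WT lithium libraries, against 360.2 to 8023 in WT vehicle libraries. With their level as a covariate, 15 members were called in HT and 13 in WT.

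Fluoxetine, an inhibitor of serotonin reuptake, was followed by higher levels of part of the chaperone arm in WT. There 7 of the 35 members were higher and 0 lower, against 3.19% of all genes higher and 1.99% lower. All 7 belong to the ATF6/XBP1 arm, and 0 of the 8 ATF4/CHOP genes passed. The vehicle libraries are those of the lithium comparison, so that the effects of both drugs share them. Hspa5 had 6055, 7888 and 8558 in WT fluoxetine libraries, against 5040.3, 6186 and 6903 in WT vehicle libraries, Syvn1 had 1288, 1468 and 1749, against 1114, 1297 and 1495, and Hyou1 had 2385, 3157 and 3477, against 2416, 2535 and 2769. For Hspa5 and Hyou1 the fluoxetine median lay above the highest vehicle library, whereas for Syvn1 it lay within the vehicle range. Each gene had at least 1 fluoxetine library within the vehicle range or below it. The log2 fold changes were 0.34 ± 0.08 for Hspa5 (adjusted p = 0.00856), 0.21 ± 0.05 for Syvn1 (adjusted p = 0.00346) and 0.26 ± 0.06 for Hyou1 (adjusted p = 0.00346). Calr was higher by 0.21 ± 0.05 (adjusted p = 0.00976), Pdia4 by 0.31 ± 0.08 (adjusted p = 0.0138), the sensor gene Ern1 by 0.21 ± 0.06 (adjusted p = 0.0188) and Sdf2l1 by 0.35 ± 0.11 (adjusted p = 0.0429). Ddit3 had 0.23 ± 0.07 and missed the threshold (adjusted p = 0.055).

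Of these calls, that of Sdf2l1 ended (adjusted p = 0.0563 to 0.0923) without fluoxetine female 2 or 3, fluoxetine male 2, 4 or 5, vehicle female 2, 3, 4 or 5, or vehicle male 2, 3, 4 or 5, and that of Ern1 (0.052) without fluoxetine male 3. The call of Ern1 also ended with the compared groups only (0.0747), after the GC and length correction (0.1) and without the 14 libraries of highest olfactory level (0.167). Without fluoxetine female 1 the count was 11 instead of 7. Oligodendrocyte markers moved with fluoxetine in WT: 3 of 6 were lower, with a summed level of 53076 to 170414 in fluoxetine libraries, against 84818 to 250020 in vehicle libraries, and their part in the result was not tested. Olfactory bulb markers, of which 0 of 5 were called, had a summed level of 250.5 to 14785 in WT fluoxetine libraries, against 360.2 to 8023 in WT vehicle libraries. Without the 14 libraries of highest olfactory level 12 members were called, and the share of all genes called in that fit is not given here.

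**Figure D4:**
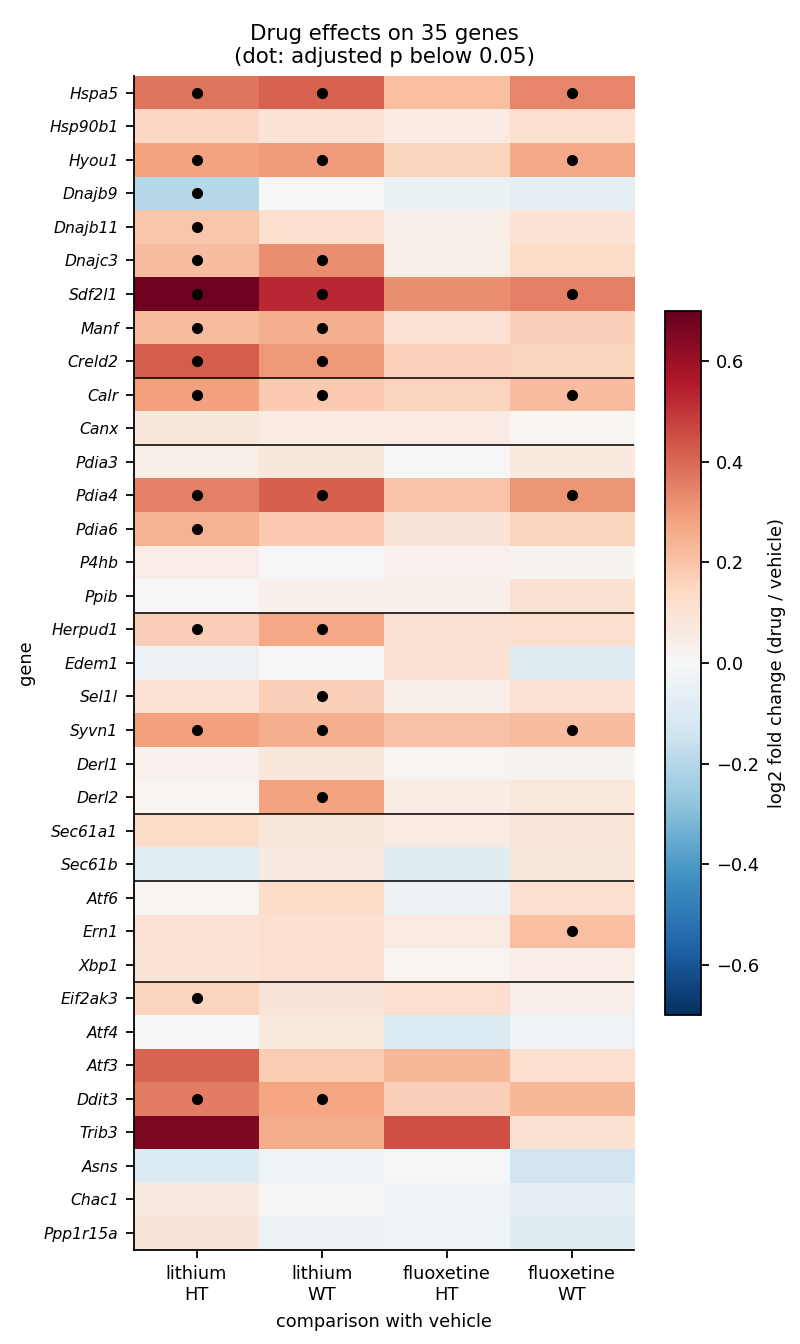
Log2 fold change of each of the 35 genes (rows, grouped by role) for lithium and for fluoxetine over vehicle, in HT and in WT (columns), from blue (lower under the drug) to red (higher), with a dot where the adjusted p was below 0.05. There were 15 dots for lithium in HT, 13 for lithium in WT, 0 for fluoxetine in HT and 7 for fluoxetine in WT.

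In HT, limma called 0 of the 35 under fluoxetine (8 at an unadjusted p below 0.05, and 0 by edgeR), against 0.0% of all genes. Syvn1 had the smallest p: it had 1275, 1475 and 1620.1 in HT fluoxetine libraries, against 1188, 1265 and 1388 in HT vehicle libraries, with overlapping ranges, and a log2 fold change of 0.20 ± 0.05 (adjusted p = 0.18). Eif2ak3 had 0.12 ± 0.04 and Sdf2l1 0.32 ± 0.12 (adjusted p = 0.456 for both). Hspa5 had 5116, 7696 and 9484 in HT fluoxetine libraries, against 5383, 6807 and 8056 in HT vehicle libraries, and the 95% interval of its log2 fold change was 0.04 to 0.39. The difference between the fluoxetine effects of HT and WT was not called for any of the 35 by limma (1 at an unadjusted p below 0.05, and 0 by edgeR), against 0.0% of all genes. Edem1 (0.19 ± 0.08), Ern1 (-0.15 ± 0.08) and Atf6 (-0.16 ± 0.11) had the smallest p, each with an adjusted p of 1.

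Lithium was also set against fluoxetine directly. In HT, limma called 0 of the 35 (10 at an unadjusted p below 0.05, and 0 by edgeR), against 0.555% of all genes, with Sdf2l1 at 0.36 ± 0.11 (adjusted p = 0.104), Dnajb11 at 0.15 ± 0.05 (adjusted p = 0.132) and Dnajc3 at 0.18 ± 0.06 (adjusted p = 0.14), all higher under lithium. In WT it called 0 (3 at an unadjusted p below 0.05, and 0 by edgeR), against 0.233% of all genes. Dnajc3 was at 0.20 ± 0.06 (adjusted p = 0.135), Derl2 at 0.20 ± 0.06 (adjusted p = 0.156) and Herpud1 at 0.15 ± 0.05 (adjusted p = 0.255). Without the 14 libraries of highest olfactory level 5 members were called in HT, and with the olfactory covariate 1 was called in WT. The shares of all genes called in these fits are not given here.

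Between HT and WT, limma and edgeR called 0 of the 35 under vehicle, lithium and fluoxetine, against 0.0% of all genes in each, with 2, 2 and 5 members at an unadjusted p below 0.05. Under vehicle Hspa5 had 5383, 6807 and 8056 in HT libraries, against 5040.3, 6186 and 6903 in WT libraries, and the ranges overlapped in part, with the highest HT libraries above every WT library. Derl2 had the smallest p under vehicle (0.17 ± 0.07 on the log2 scale, adjusted p = 0.719), Dnajb11 under lithium (0.12 ± 0.05, adjusted p = 0.431) and Edem1 under fluoxetine (0.18 ± 0.05, adjusted p = 0.226). Next under vehicle came Trib3 (-0.63 ± 0.31) and Sec61b (0.19 ± 0.10), both with an adjusted p of 0.781. Under lithium these were Calr (0.12 ± 0.05, adjusted p = 0.473) and Sdf2l1 (0.19 ± 0.11, adjusted p = 0.583), and under fluoxetine Derl2 (0.15 ± 0.06, adjusted p = 0.361) and Dnajb9 (0.14 ± 0.06, adjusted p = 0.371). Without the 14 libraries of highest olfactory level, 3 members were called under lithium, Derl2 at -0.26 ± 0.07 (adjusted p = 0.0213), Dnajb11 at 0.20 ± 0.06 (adjusted p = 0.0399) and Dnajb9 at -0.21 ± 0.06 (adjusted p = 0.0492). The share of all genes called in that fit is not given here. Within vehicle females limma and edgeR called 0, against 0.0% of all genes, with 1 member at an unadjusted p below 0.05. The smallest p were those of Sec61b, Ppib and Eif2ak3, with log2 fold changes of 0.35 ± 0.12, 0.12 ± 0.06 and -0.08 ± 0.05 and adjusted p of 1 each. Within vehicle males both tools called 0, against 0.261%, with 7 at an unadjusted p below 0.05, led by Derl2 (0.30 ± 0.10, adjusted p = 0.201), Trib3 (-1.27 ± 0.46, adjusted p = 0.242) and Dnajc3 (0.25 ± 0.09, adjusted p = 0.253).

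Within each sex the groups hold 3 to 5 libraries, and the lithium calls were fewer. In HT females 11 members were higher, against 10.5% of all genes called in either direction: Syvn1 (0.28 ± 0.06), Hyou1, Calr, Pdia4, Sdf2l1, Hspa5, Dnajc3, Creld2, Eif2ak3, Ddit3 and Dnajb11. In HT males limma called 0, against 0.0166% of all genes, with 13 at an unadjusted p below 0.05 and 0 by edgeR. Sdf2l1 was at 0.79 ± 0.18 there (adjusted p = 0.104), Syvn1 at 0.29 ± 0.08 (adjusted p = 0.162) and Calr at 0.26 ± 0.09 (adjusted p = 0.246). In WT females 7 were higher (Syvn1, Hyou1, Herpud1, Pdia4, Hspa5, Dnajc3 and Calr), against 6.62% of all genes in either direction. In WT males 4 were higher (Dnajc3, Derl2, Sdf2l1 and Hspa5), against 2.3% in either direction. With the compared groups only, 0 members were called in HT females. The count there was 7 after the GC and length correction and 17 without the 14 libraries of highest olfactory level, and in WT females it was 4 after that correction. Leaving out single libraries took the count to 5 to 13 in HT females, 3 to 7 in WT females and 2 to 5 in WT males. In HT females the count was 7 without lithium female 5, 6 without vehicle female 2 and 5 without vehicle female 3. In WT females it was 3 without lithium female 4 and 4 without lithium female 3 or vehicle female 3 or 4. In WT males it was 2 without lithium male 1, 2, 3 or 5 or vehicle male 3, 4 or 5.

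Hspa5, a member called under lithium in both genotypes, is given over the 12 groups as an example, and not all members followed it. Its mean was 8985 ± 1617 in HT lithium females (SD, n = 5), 8154 ± 1011 in HT fluoxetine females (n = 5) and 6702 ± 1259 in HT vehicle females (n = 5), and 8176 ± 733 in HT lithium males (n = 4), 7231 ± 1239.9 in HT fluoxetine males (n = 5) and 6529 ± 491 in HT vehicle males (n = 3). In WT it was 8692 ± 580.0 in lithium females (n = 4), 7736 ± 985 in fluoxetine females (n = 5) and 6536 ± 430.4 in vehicle females (n = 5), and 7637 ± 1067 in lithium males (n = 5), 7788 ± 295 in fluoxetine males (n = 5) and 5707 ± 519 in vehicle males (n = 5). The vehicle mean was the lowest of the 3 in each genotype and sex. Whether the lithium effect differed between males and females was tested within each genotype. limma and edgeR called 0 of the 35 in HT (2 at an unadjusted p below 0.05), against 0.172% of all genes, and 0 in WT (1 at an unadjusted p below 0.05), against 0.0%. The smallest p belonged to Sec61b (0.52 ± 0.20, adjusted p = 0.386), Chac1 (0.53 ± 0.24, adjusted p = 0.51) and P4hb (-0.14 ± 0.07, adjusted p = 0.594) in HT, and to Syvn1 (-0.32 ± 0.09, adjusted p = 0.254), Hyou1 (-0.21 ± 0.12, adjusted p = 0.658) and Atf4 (0.23 ± 0.13, adjusted p = 0.679) in WT, as the effect in males minus that in females.

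The fluoxetine effect of WT differed between the sexes for 4 members, against 7.74% of all genes called. Atf6 had 2893 to 3789 in WT fluoxetine males, against 2029.8 to 3058 in WT vehicle males, and 1799.6 to 3397 in WT fluoxetine females, against 2759.9 to 3100.1 in WT vehicle females. Its effect was higher in males than in females by 0.63 ± 0.15 on the log2 scale (adjusted p = 0.0115). The effect was also higher in males for Derl2 (0.47 ± 0.12, adjusted p = 0.0157) and Pdia3 (0.38 ± 0.12, adjusted p = 0.0386) and lower for Syvn1 (-0.33 ± 0.09, adjusted p = 0.022). The olfactory level moved with these groups: the mean log2 level of its markers had a median of 6.53 in WT fluoxetine males, against 9.19 in WT vehicle males, and of 10.3 in WT fluoxetine females, against 9.24 in WT vehicle females. Without the 14 libraries of highest olfactory level, and also after correction for GC content and length, 0 of the 4 were called. The call of Pdia3 also ended without WT fluoxetine female 1, 2 or 4, fluoxetine male 1 or 3, vehicle female 1, 2 or 4, or vehicle male 3 or 4 (adjusted p = 0.0585 to 0.0891), and that of Syvn1 without WT fluoxetine female 2 (0.0592). The count was 2 without WT fluoxetine female 2 and 7 without WT fluoxetine female 5.

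Within a sex, fluoxetine gave few calls. In WT females 3 members were higher, Syvn1 (0.38 ± 0.06, adjusted p = 0.000237), Ern1 (0.34 ± 0.08, adjusted p = 0.00298) and Hyou1 (0.25 ± 0.08, adjusted p = 0.0317). Of all genes 12.1% were called in either direction, so the members were not called more often than genes at large. The count was 0 with the compared groups only, 7 without fluoxetine female 1 and 5 without fluoxetine female 5. In WT males 2 were higher, Atf6 (0.43 ± 0.11, adjusted p = 0.0343) and Hspa5 (0.45 ± 0.12, adjusted p = 0.0368), against 1.03% of all genes in either direction. Neither held without fluoxetine male 1, 3 or 4 or vehicle male 3, 4 or 5, where the count was 0, nor after the GC and length correction, and it was 1 without fluoxetine male 2, 5 without fluoxetine male 5 and 4 without vehicle male 2. In HT females limma and edgeR called 0, against 0.727% of all genes, with 10 members at an unadjusted p below 0.05, led by Herpud1 (0.26 ± 0.07, adjusted p = 0.0719), Hyou1 (0.28 ± 0.08, adjusted p = 0.0797) and Syvn1 (0.22 ± 0.06, adjusted p = 0.0878), and 3 were called without HT vehicle female 5. In HT males both called 0, against 0.0%, with 1 at an unadjusted p below 0.05, and Syvn1 (0.19 ± 0.07), Trib3 (0.88 ± 0.46) and Ppib (0.13 ± 0.07) had the smallest p, with adjusted p of 1. The difference between the sexes in HT was called by neither tool for any of the 35, against 0.0277% of all genes, with 3 at an unadjusted p below 0.05, and Herpud1 (-0.30 ± 0.11, adjusted p = 0.515), Canx (-0.24 ± 0.09, adjusted p = 0.569) and Hyou1 (-0.25 ± 0.12, adjusted p = 0.749) led.

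Further genes of the same pathways were read from fixed lists under lithium, and several of their counts lie near the shares of all genes called (5.06% higher and 4.7% lower in HT, 7.05% higher and 4.65% lower in WT). Of 31 further ER folding and calcium-binding genes, 4 were higher and 1 lower in HT and 4 were higher and 1 lower in WT, with medians of -0.01 and -0.04 on the log2 scale. Those named by their p were Uggt1, the glucosyltransferase that senses unfolded glycoproteins (0.21 ± 0.04 in HT, adjusted p = 0.00045, and 0.13 ± 0.04 in WT, adjusted p = 0.0123), Prkcsh, a subunit of glucosidase II (0.26 ± 0.06 in HT), Creld1 (0.25 ± 0.07 in HT), the oxidase Ero1b (0.33 ± 0.06 in WT, adjusted p = 0.000142) and Txndc11 (0.17 ± 0.04 in WT). Prkcsh was also called in WT (0.19 ± 0.06, adjusted p = 0.0203) and Ero1b in HT (0.21 ± 0.06, adjusted p = 0.0273). Of 20 further degradation genes, 1 was higher and 3 lower in HT (Erlec1 at -0.29 ± 0.05, Ufd1 at -0.21 ± 0.04 and, higher, the lectin Os9 at 0.22 ± 0.06 led), and 2 were lower in WT (Ufd1 at -0.13 ± 0.04 and Ube2j2 at -0.14 ± 0.04). Translocation and glycosylation genes (23 tested of 24) had 1 lower in each genotype, Spcs1 in HT and Ssr2 in WT.

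Among 20 vesicle coat and cargo genes, 0 were higher and 1 lower in HT (Sar1a, -0.17 ± 0.04), and 2 were higher and 1 lower in WT (Sec24c at 0.19 ± 0.03, Sec31a at 0.14 ± 0.05 and Sar1a at -0.14 ± 0.04). Of 12 genes of the ATF6 and CREB3 family and its partners, the membrane-bound factor Creb3l2 was higher in both (0.25 ± 0.07 in HT, adjusted p = 0.0186, and 0.34 ± 0.07 in WT, adjusted p = 0.000604), Atf6b was higher in HT (0.17 ± 0.05), and Nfyb, a subunit of the factor that binds CCAAT, was lower in both (-0.20 ± 0.06 in each). Among 13 genes listed under eIF2alpha phosphorylation and initiation factors, 0 were higher and 3 lower in HT (Eif2s2 at -0.28 ± 0.05, Eif2b3 at -0.24 ± 0.07 and Eif2s1 at -0.21 ± 0.07), and 1 was higher (Eif2ak4 at 0.14 ± 0.05) and 2 lower in WT (Dnajc2 at -0.19 ± 0.06 and Eif2s2 at -0.16 ± 0.05). Dnajc2 stood in that list but is not itself an eIF2alpha kinase or an initiation factor. Of 41 tested targets of ATF4 and CHOP, 1 was higher in HT (Atf5, 0.34 ± 0.10, adjusted p = 0.0249) and 5 in WT, led by Gpt2 (0.24 ± 0.05), Iars (0.19 ± 0.05) and the amino acid transporter Slc38a2 (0.30 ± 0.07), with medians of 0.10 and 0.04. Under fluoxetine, 0 genes of these lists were called in HT, and in WT the most called in 1 direction in any of the lists was 2.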

How the data were processed

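Poly(A) RNA was sequenced from stranded libraries (TruSeq Stranded mRNA in the labels' protocols). Per the labels and values, the authors deposited a signal, which is each gene's counts after division by a size factor of the library. Global changes in RNA content are lost in that step. Salmon 0.11.2, R 3.6.0, DESeq2 1.19.11 and GRCm38 are named in the submitters' processing notes, without roles. Of 59 columns, 56 were matched to the 57 labelled samples by name. The other 3 matched no sample and were not used, and 1 sample, a WT lithium female, was not analysed here. All values were whole multiples of 1 read (100% within 1e-06). Over 105 pairs of libraries of 1 group chi-square divided by its degrees of freedom was at least 4.94, so none was a repeat.

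Values were analysed as log2(value + 1), which understates the folds of low genes. Genes at 10 or more in at least 3 libraries (18026, with all 35 members) entered 1 limma-trend fit over 12 groups (limma 3.58.1, R 4.3.3, 44 residual degrees of freedom). In each of 25 two-sided contrasts, genes with a Benjamini-Hochberg p under 0.05 were called. Members, lists and alternatives were chosen with earlier results of these data known. Alternatives were edgeR 4.0.16 (quasi-likelihood, TMM) on the recovered reads, TMM factors, a pseudocount of 5, no filter, compared groups only, a replicate block, an olfactory covariate, a correction for GC content and length, and leaving out libraries. Named were all called members, or the 3 of smallest p, and up to 3 called genes per further list. Transcript length and GC content came from the GRCm38 annotation and promoters from RefSeq. The fit was tested on simulated data.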

Additional observations from a re-analysis of the deposited data

Results flagged for a closer look

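Over the 16 members whose library values are given, 64 groups of values were examined for a library far from the others, and 10 had one. Chance gives about 1 in 20 for independent groups, but the genes were read in the same libraries, so these groups were not independent. HT lithium female 5 was the highest of its group for Hspa5 (11485, the next being 9095), Hyou1 (3959, the next being 3385), Dnajb11 (2149.8, the next being 1871), Creld2 (551, the next being 423) and Pdia4 (1595, the next being 1307). Without it the log2 fold changes of lithium in HT were 0.33 ± 0.09 for Hspa5, 0.25 ± 0.06 for Hyou1, 0.17 ± 0.05 for Dnajb11, 0.36 ± 0.10 for Creld2 and 0.31 ± 0.09 for Pdia4, all still called. WT lithium male 4 was the lowest of its group for Creld2 (248, the next being 338) and the highest for Atf4 (4368, the next being 3507). WT vehicle female 1 was the highest for Sdf2l1 (311, the next being 256), HT vehicle male 2 for Herpud1 (1292, the next being 1166) and HT vehicle female 1 for Derl2 (928, the next being 794).

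The effect of fluoxetine in WT was called as different between the sexes for Atf6 (0.63), Derl2 (0.47), Pdia3 (0.38) and Syvn1 (-0.33), as males minus females on the log2 scale. Of all genes, 7.74% were called in that comparison, and the count of members lies near that share. None of the calls of these members held without the 14 libraries of highest olfactory level or after the GC and length correction. The olfactory level given beside these values moved with the same groups.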

How the results depend on the processing

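The main lithium counts were not moved by over 1.5 times: 15 members called in HT became 10 to 15 when 1 library was left out in turn and 11 to 16 under the other alternatives, and 13 in WT became 11 to 14 and 12 to 14. Of these calls, 8 in HT and 11 in WT held under every alternative. Of the 39 member calls for lithium in HT and WT, fluoxetine in WT and its sex difference there, 24 held under every alternative run and 0 changed direction. Calls within a sex were followed as counts only. In 12 of 25 comparisons no alternative moved the count by over 1.5 times. Leaving out 1 library in turn gave 6 to 11 for fluoxetine in WT, 3 to 7 for lithium in WT females, 2 to 5 in WT males and 5 to 13 in HT females, 2 to 7 for fluoxetine in WT females, 0 to 5 in WT males and 0 to 3 in HT females, and 2 to 7 for the sex difference of fluoxetine in WT. Without the 14 most olfactory libraries the counts were 12 for fluoxetine in WT, 5 for lithium against fluoxetine in HT, 3 for HT against WT under lithium, 2 for the genotype difference of lithium, 17 for lithium in HT females, 1 in HT males, 1 for fluoxetine in HT females and 0 for the sex difference of fluoxetine in WT. With the olfactory covariate they were 1 for lithium against fluoxetine in WT, 11 for lithium in WT females, and 8, 6 and 2 for fluoxetine in WT females, WT males and HT females. The GC and length correction gave 4 and 7 for lithium in WT and HT females, 0 for fluoxetine in WT males and 0 for its sex difference. With the compared groups only, lithium gave 0 in HT females and 1 in HT males, and fluoxetine 0 in WT females and 1 for its sex difference in WT. Without the 2 libraries set apart, lithium gave 11 in WT females, and fluoxetine 7 in WT females and 5 in WT males. Replicate numbers did not pair the samples (median correlation 0.00039 over 131 pairs of the same number and -0.0029 over 521 others), and a replicate block gave 11 for lithium in WT females, 1 for fluoxetine in HT females and 14 for lithium in HT. The share of all genes called is given for the main fit only. The causes of these moves were not tested. Genes of few reads, Trib3 and Atf3, had the widest intervals.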
